A study of Homo sapiens with 6 samples.

Results

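The genes described here write, erase or maintain methyl groups on histones and on DNA. The set holds 55 genes, fixed by symbol, out of 60612 Ensembl gene identifiers in the deposited count tables, and all 55 were matched and passed the filter on low counts that left 17854 genes tested. They were sorted by mark and role into 13 groups: lysines 4, 9, 27, 36 and 79 of histone H3, lysine 20 of histone H4, arginine, and DNA. RNA was sequenced from SKBR3, a HER2-positive breast cancer line of mammary epithelial origin. The parental group is 3 untreated libraries, and the trastuzumab group is 3 libraries of the same line exposed to trastuzumab, a therapeutic antibody to HER2, at rising dose for 30 weeks. The labels do not tell if cells were harvested in the drug, if replicates were separate cultures, or if more than 1 treated population was raised, so p-values measure only the spread between these libraries, which may be technical.

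Histone methyl marks divide the genome by activity. Methylated H3K4 lies at promoters and enhancers, H3K36 methylation along transcribed gene bodies and H3K79 methylation at active genes, while H3K9 methylation marks heterochromatin and H3K27 methylation, laid down by the Polycomb complex PRC2, marks silenced developmental genes. DNMT enzymes methylate cytosine in CpG dinucleotides, UHRF1 guides DNMT1 to newly replicated DNA, and TET enzymes oxidise methylcytosine as the first step of its removal. Writers use S-adenosylmethionine as methyl donor. JmjC-domain demethylases and TET enzymes need iron and 2-oxoglutarate. In breast cancers KMT2C, KMT2D and SETD2 are known targets of mutation. RNA levels say nothing direct about the amount of protein, the activity of an enzyme or the marks themselves, none of which were measured in these files.

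The libraries held 71015138 to 82857810 counts. Levels below are in CPM, counts relative to the TMM-scaled library total, which compare 1 gene between libraries, or in the FPKM the authors deposited, which are also divided by gene length and so compare genes. Fold changes are log2 values, trastuzumab minus parental, with their standard error (SE), and adjusted p-values are from edgeR's quasi-likelihood test over all 17854 tested genes. A gene is called higher or lower where that value is below 0.05. The 6 luminal epithelial markers, ERBB2 among them, summed to 18443 to 20194 CPM in parental and 21391 to 22989 CPM in trastuzumab libraries. Fibroblast markers summed to 5.87 to 18.8 CPM, and leukocyte markers to 1.64 to 1.97 CPM in parental and 3.94 to 4.24 CPM in trastuzumab libraries. The 4 endothelial markers summed to 28.6 to 31.7 CPM in parental and 78.98 to 86.0 CPM in trastuzumab libraries. Most of this was CDH5, which was called higher (from 26.4 to 79.3 CPM, 1.59 ± 0.065 SE, edgeR adjusted p = 2.32e-11). VWF (3.75 and 3.50 CPM) and PECAM1 (0.068 and 0.18 CPM) had no call, and KDR was left out by the filter. The cell source of the CDH5 RNA was not tested.

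Under trastuzumab, the H3K36 methyltransferases, the TET dioxygenases and the very large H3K4 methyltransferases KMT2A and KMT2C stood lower. The DNA methyltransferases did not pass the test, and a small group led by the demethylase PHF8 and the H3K4 methyltransferase KMT2B stood higher. Of the 55 genes, 26 were lower (47.3%), 9 were higher (16.4%) and 20 did not pass the test. Over all tested genes 49.3% were called, 25.4% lower and 23.9% higher. The members are all protein-coding, as were 13569 of the tested genes, so shares over all tested genes are not matched to them. Ordered by quintile of transcript GC content, 67.3, 49.7, 25.9, 7.89 and 4.79% of protein-coding genes were called lower. Called higher were 2.95, 9.8, 25.1, 48.7 and 56.4%, from the lowest quintile to the highest. The median log2 fold change was -0.17 over the members and -0.0057 over all tested genes. The parental and trastuzumab libraries did not overlap for 39 members (70.9%), against 57.5% of all tested genes. A fall of at least 1.5-fold was called for 14 members (25.5%), against 12.3% of all tested genes, and a rise of that size for 0 members, against 8.83%. The largest rise, that of PHF8, was 1.48-fold. In RNA from whole cultures, fewer cells that express a gene and less RNA per cell cannot be told apart.

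**Figure D1:**
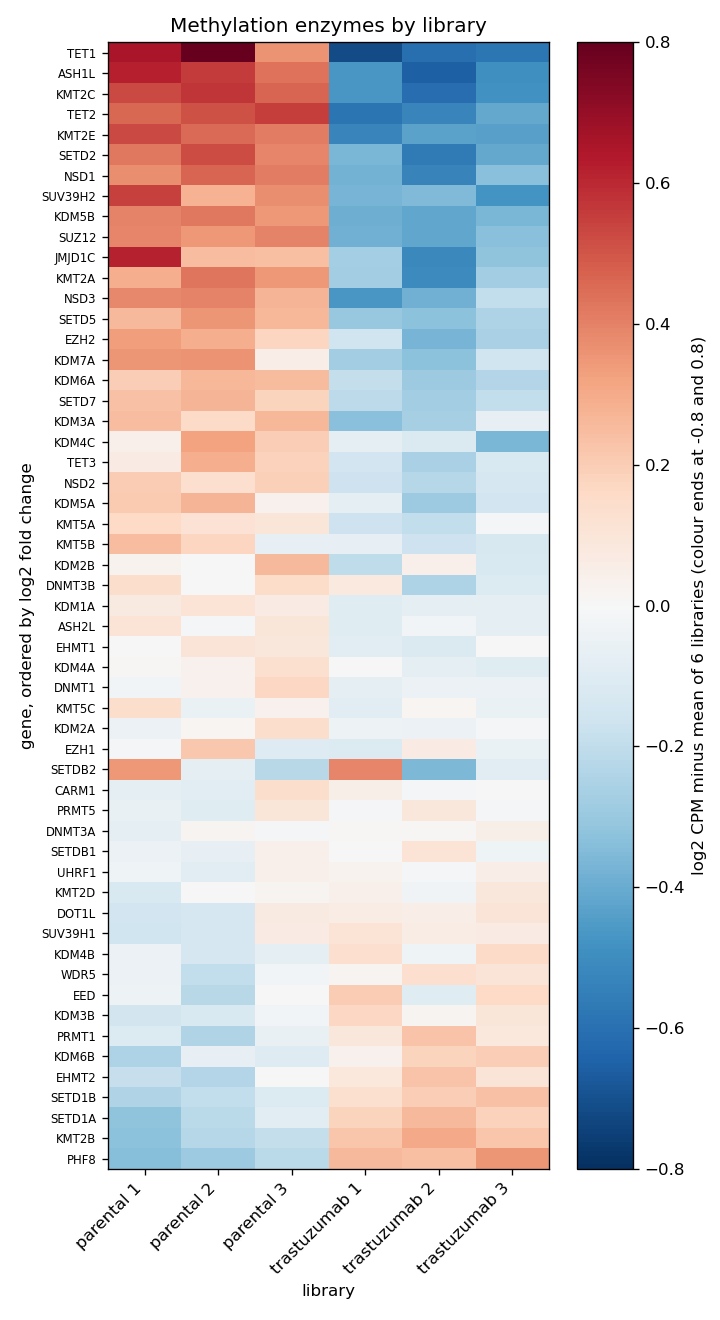
Each row is 1 of the 55 genes, ordered by log2 fold change, and each column is 1 library. Colour gives the log2 CPM minus the mean of the gene's 6 libraries. The upper rows are high in all 3 parental libraries and low in all 3 trastuzumab libraries, and the lowest rows, down to PHF8, show the opposite.

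The members' fold changes rose with the base composition of their transcripts. Across the 55 genes the Spearman correlation of log2 fold change with transcript GC content was 0.724, and across 13569 tested protein-coding genes it was 0.567 (genes share libraries and are not independent replicates). Of the 22 members in the 2 lowest quintiles of GC content, up to 46.96% GC, 20 were lower and 0 were higher. Of the 9 members in the highest quintile, from 58.84% GC, 5 were higher and 0 were lower. All genes moved the same way: their median was -0.49 in the lowest quintile and 0.37 in the highest, where the members' medians were -0.75 and 0.28. In the next quintile the medians were -0.61 over 14 members and -0.29 over 2714 genes. The members are also long, with a median exonic length of 9231 bases against 5008 for protein-coding genes, and log2 fold change fell with length (Spearman -0.362 over members, -0.29 over genes). A single median per quintile therefore does not stand for a gene of the same length.

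**Figure D2:**
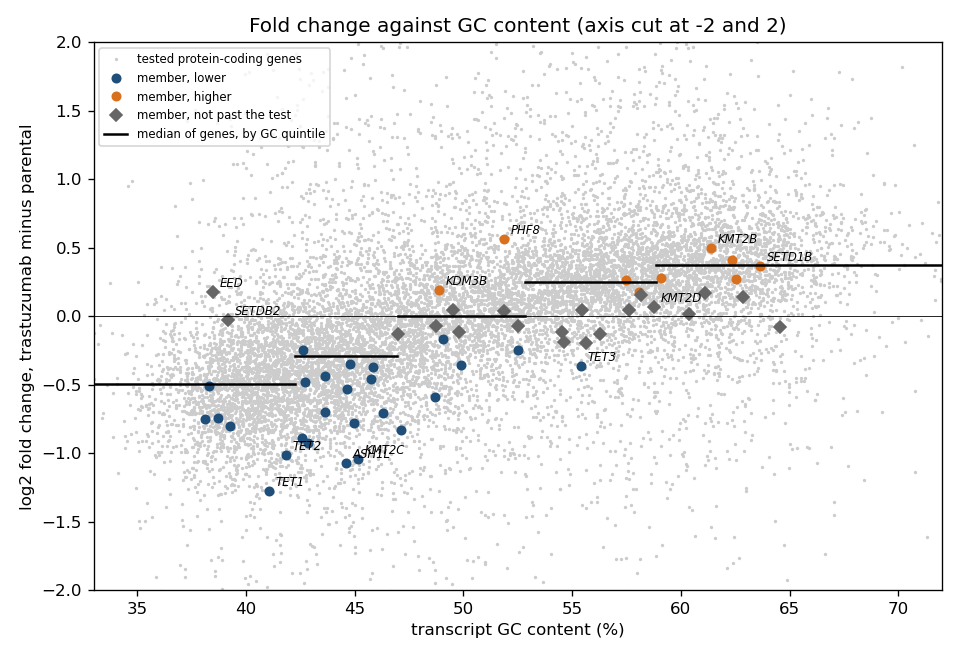
Log2 fold change (vertical axis) against transcript GC content in percent (horizontal axis) for tested protein-coding genes in grey and for the 55 members in colour; black lines are medians of all genes in quintiles of GC content. Members called lower lie mostly on the left and members called higher on the right, in the direction of the trend of all genes. PHF8, EED and SETDB2 are among those above the trend, and TET1, TET3, ASH1L and KMT2C among those below it.

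Beside many of the results, though not all, stand values from 2 further fits. The GC fit takes out of each library a smooth trend of expression on transcript GC content. The GC and length fit takes out a trend on GC content and exonic length together. Where composition goes with the group, these fits also remove real change linked to it, and the part of composition in any call was not tested otherwise. The GC and length fit called 29 members lower and 7 higher, against 18.9% of 17649 genes in each direction and 37.8% in all. The GC fit called 31 lower and 4 higher, against 19.7% and 19.1%. Lower in all 3 fits were 18 members (32.7%), against 12.3% of all genes: the H3K36 methyltransferases SETD2, NSD1, NSD2, NSD3 and ASH1L with SETD5, KMT2A, KMT2C and KMT2E, KDM1A and KDM5B, SUV39H2, EZH2 and SUZ12, KMT5A, and TET1, TET2 and TET3. Higher in all 3 were KMT2B, KDM3B and PHF8 (5.45%, against 12.1%).

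**Figure D3:**
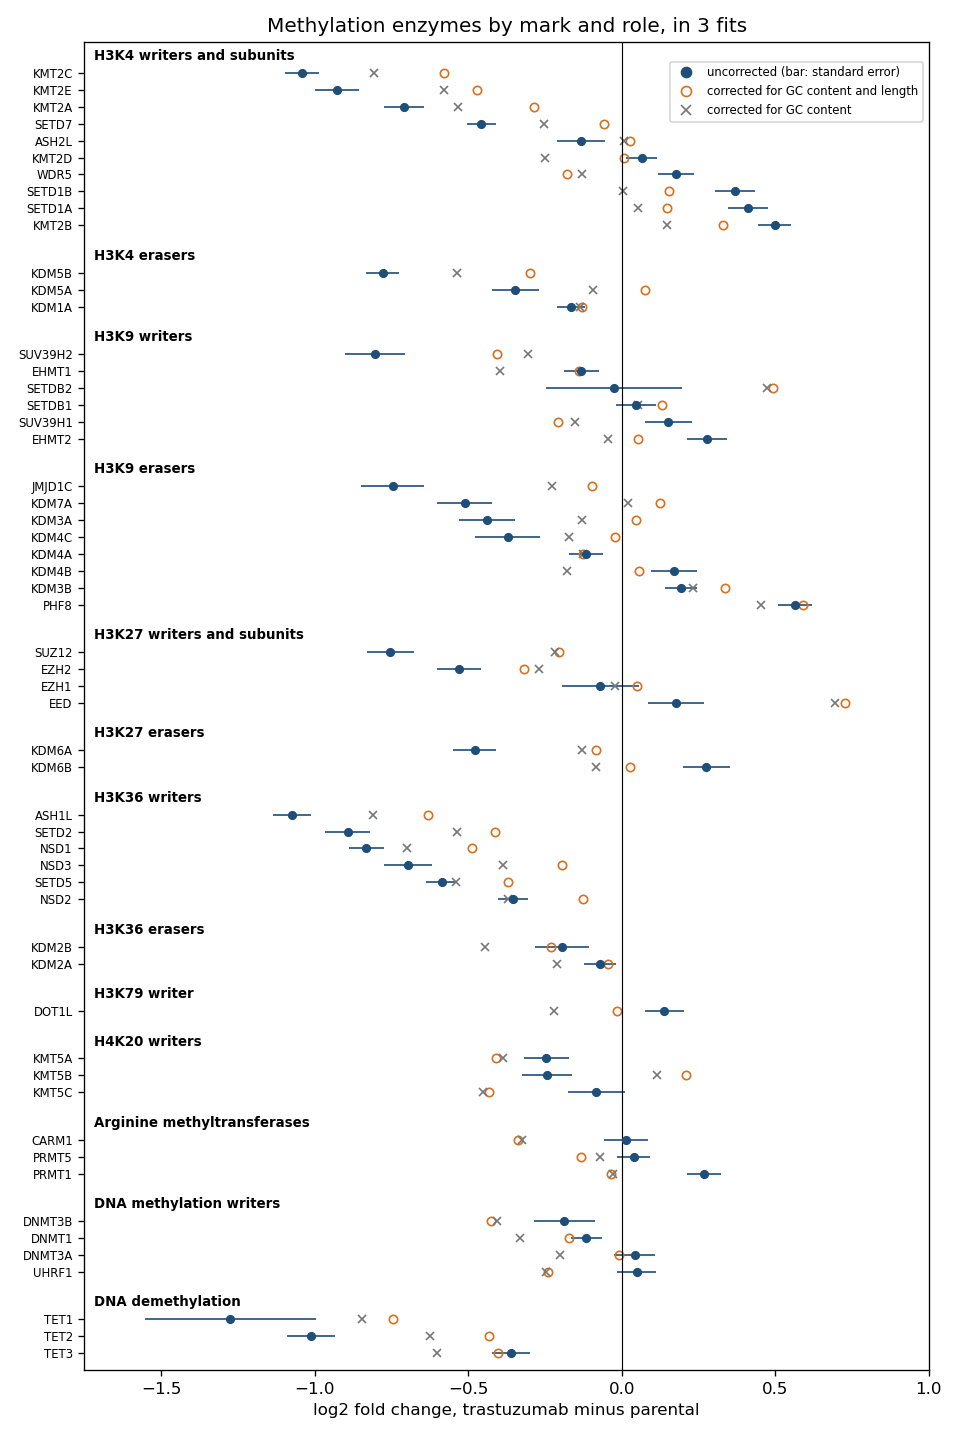
Log2 fold change, trastuzumab minus parental (horizontal axis), for each gene, grouped by mark and role. Filled circles with bars are the uncorrected values and their standard errors, open circles the values corrected for GC content and length, and crosses those corrected for GC content alone. All 6 H3K36 writers and all 3 TET genes lie left of 0 in every fit, while EED and the DNA methylation writers shift in opposite directions with correction.

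Fold changes ran with the base composition of transcripts and hardly with that of promoters. RefSeq promoter windows of 300 bases (250 before and 50 after the chosen start, GRCh38.p14) were at hand for 51 members. Their Spearman correlation of log2 fold change with GC content was -0.0806 for the promoter window and 0.704 for the transcript. Over 10859 tested protein-coding genes the values were 0.0375 and 0.587. Member promoters held a median of 29 CpG dinucleotides, against 14 over 27305 RefSeq promoters. The sequences below show how much the stretches before the RefSeq start differ among members that fell. They are bases 160 to 11 before the start, 5′ to 3′, with each CpG, the site that DNMT and TET enzymes act on, in capitals. They were taken from the 12 members whose stretch lies outside every annotated gene, and are those of TET1, the largest fall, 2 H3K36 writers, SUZ12, and KMT2B, the H3K4 writer with the largest rise. They were chosen with the fold changes known.
TET1, chr10:68560177-68560326, + strand: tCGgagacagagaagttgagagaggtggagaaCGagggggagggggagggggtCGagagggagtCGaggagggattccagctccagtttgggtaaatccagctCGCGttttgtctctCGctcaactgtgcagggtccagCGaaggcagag
NSD1, chr5:177131638-177131787, + strand: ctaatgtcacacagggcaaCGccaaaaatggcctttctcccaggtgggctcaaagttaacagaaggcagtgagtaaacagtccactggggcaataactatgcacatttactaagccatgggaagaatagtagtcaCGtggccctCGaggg
NSD2, chr4:1871233-1871382, + strand: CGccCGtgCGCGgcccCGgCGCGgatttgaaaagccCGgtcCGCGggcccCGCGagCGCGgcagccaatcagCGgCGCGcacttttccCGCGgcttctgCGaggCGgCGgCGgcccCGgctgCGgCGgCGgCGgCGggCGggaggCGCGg
SUZ12, chr17:31936847-31936996, + strand: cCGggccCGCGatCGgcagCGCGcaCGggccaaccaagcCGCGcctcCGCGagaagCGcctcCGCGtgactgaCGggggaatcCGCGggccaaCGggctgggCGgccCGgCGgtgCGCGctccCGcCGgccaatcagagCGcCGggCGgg
KMT2B, chr19:35717843-35717992, + strand: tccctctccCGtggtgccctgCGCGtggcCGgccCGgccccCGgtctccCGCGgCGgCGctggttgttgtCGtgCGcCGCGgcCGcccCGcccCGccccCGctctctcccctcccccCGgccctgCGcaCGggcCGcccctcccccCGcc
The stretch of NSD1 holds 3 CpG and that of NSD2 holds 32, although both genes were lower. SUZ12, lower, and KMT2B, higher, hold 28 and 23, and TET1 holds 8. The RefSeq starts used for NSD1 and TET1 lie well upstream of the gene starts in GENCODE 29, 177133025 and 68560656. The stretches shown for NSD1 and TET1, those with the fewest CpG here, need not be their main promoters. CpG methylation at these places was not measured in these files.

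Short motifs in the windows were counted on both strands, overlaps between motifs allowed. Median GC content was 66.7% in the windows of members and 58.3% over all promoters. The part of base composition in the motif counts was not tested. The GC box GGGCGG was in 34 of 51 member promoters (66.7%), against 44.6% of all promoters, and CCAAT in 19 (37.3%, against 35.7%). The motif CCGGAAG, bound by ETS factors, was in 5 (9.8%, against 10.7%). E2F-type motifs were rare: TTTCCCGC was in 3 windows (5.88%, against 1.66%), those of NSD2, SUZ12 and UHRF1, and TTTGGCGC in that of EZH2 alone (1.96%, against 0.659%).

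All 6 genes listed as H3K36 writers were lower in trastuzumab libraries. ASH1L, which dimethylates H3K36 at active genes, showed 136, 129.9 and 119 CPM in parental replicates 1 to 3 and 64.0, 56.1 and 63.0 CPM in trastuzumab replicates 1 to 3, a 2.10-fold fall (log2 fold change -1.07 ± 0.062 SE, edgeR adjusted p = 1.1e-09). SETD2, the enzyme that makes trimethylated H3K36 behind RNA polymerase II, showed 53.3, 57.1 and 52.1 CPM in parental and 30.8, 26.8 and 29.8 CPM in trastuzumab libraries (-0.89 ± 0.073, adjusted p = 4.55e-08). In both genes the highest trastuzumab library lay far below the lowest parental one. NSD1, a dimethyltransferase, showed 134, 143 and 138 CPM in parental and 79.7, 71.5 and 82.1 CPM in trastuzumab libraries (-0.83 ± 0.057), and NSD3, its paralog, 49.9, 50.3 and 46.1 CPM in parental and 27.7, 29.3 and 33.3 CPM in trastuzumab libraries (-0.70 ± 0.078). SETD5, a SET-domain protein whose catalytic activity is disputed, showed 95.6, 102 and 96.2 CPM in parental and 64.7, 63.7 and 67.2 CPM in trastuzumab libraries (-0.59 ± 0.051). The smallest fall was that of NSD2, the dimethyltransferase altered in myeloma, at 109.6, 104 and 109 CPM in parental and 84.9, 81.0 and 86.5 CPM in trastuzumab libraries (-0.35 ± 0.05, adjusted p = 1.61e-05). Groups overlapped in none of the 6. The median over the group was -0.76, and -0.39 and -0.54 in the GC and length fit and the GC fit, in both of which all 6 calls held. NSD2 and NSD3 came nearest to losing theirs, with adjusted p = 0.0283 and 0.0355 in the GC and length fit. The 2 genes named first lie on hg38 as SETD2 (ENSG00000181555, chromosome 3, 47016429 to 47163967) and ASH1L (ENSG00000116539, chromosome 1, 155335268 to 155562807). Another tested gene overlaps 25 of the 55, for 5 in the same orientation, and whether strand was used in counting is not given in the sources used here. DDHD2, on the other strand from NSD3, was itself lower (from 26.5 to 17.2 CPM).

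The 2 genes listed as H3K36 demethylases did not pass the test. The KDM4 genes, which also act on H3K36, are counted under H3K9. Among them KDM4C was called lower (-0.37), and KDM4A and KDM4B did not pass. KDM2A, a CpG-binding demethylase, stood at 178, 186 and 203 CPM in parental replicates 1 to 3 and 179, 179 and 183 CPM in trastuzumab replicates 1 to 3, and its groups overlapped. KDM2B, its paralog that also recruits Polycomb to CpG islands, stood at 32.6, 32.0 and 38.2 CPM in parental and 27.7, 32.8 and 29.3 CPM in trastuzumab libraries, again with overlap. Neither passed edgeR's test (log2 fold change -0.071 ± 0.051 and -0.19 ± 0.087, adjusted p = 0.278 and 0.076), 1 of the 2 had an unadjusted p below 0.05, and DESeq2 and limma-voom called 0. With library totals as the scale both passed (-0.13 and -0.25, adjusted p = 0.0397 and 0.0222), and limma on log2(FPKM + 1) called KDM2A (-0.13, adjusted p = 0.0405). KDM2B passed without trastuzumab replicate 2 (-0.26, adjusted p = 0.0361) and in the GC and length fit (-0.23, adjusted p = 0.0306; 0.0537 with the replicate block), and the GC fit called both lower. Summed over the group, FPKM of the 6 writers were 36.7, 37.4 and 34.8 in parental and 20.9, 19.3 and 21.3 in trastuzumab libraries. The sum of the 2 listed demethylases, without the KDM4 genes, was 17.7, 18.4 and 19.9 and then 16.6, 16.8 and 16.9.

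Transcripts of the enzymes that remove DNA methylation fell, and those of the enzymes that place it did not pass the test. TET2, a dioxygenase often mutated in blood cancers, showed 31.8, 32.9 and 34.0 CPM in parental replicates 1 to 3 and 15.4, 16.1 and 17.4 CPM in trastuzumab replicates 1 to 3, a 2.02-fold fall (-1.01 ± 0.078 SE, edgeR adjusted p = 2.46e-08). TET3, the most abundant of the family here, showed 77.3, 90.3 and 83.9 CPM in parental and 66.4, 61.7 and 67.8 CPM in trastuzumab libraries (-0.36 ± 0.062, adjusted p = 0.000127). TET1, which is scarce in these cells, showed 1.99, 2.32 and 1.62 CPM in parental and 0.771, 0.830 and 0.848 CPM in trastuzumab libraries (-1.27 ± 0.28, adjusted p = 0.00103), from 118 to 171 counts per parental and 54 to 68 per trastuzumab library. All 3 pairs of groups were apart. In the GC and length fit the log2 fold changes were -0.74, -0.43 and -0.40 for TET1, TET2 and TET3 (adjusted p = 0.0415, 0.000286 and 8.07e-06). With the replicate number added as a block to that fit, the call of TET1 was lost (-0.74, adjusted p = 0.0648). TET3 has 55.4% GC, in the quintile of GC content in which 7.89% of genes were called lower and 48.7% higher, and TET1 and TET2 lie at 41.0% and 41.9%. TET2 (ENSG00000168769, chromosome 4, 105145875 to 105279816), TET3 (ENSG00000187605, chromosome 2, 73986404 to 74108176) and TET1 (ENSG00000138336, chromosome 10, 68560656 to 68694482) overlap no tested protein-coding gene. TET1 holds on its own strand the tested pseudogene COX20P1, at 0.55 and 0.43 CPM in parental and trastuzumab libraries, and how reads were divided between them is not stated.

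Among the writers, DNMT1, the maintenance methyltransferase, stood at 151, 157 and 172 CPM in parental replicates 1 to 3 and 146, 148 and 149 CPM in trastuzumab replicates 1 to 3. All trastuzumab libraries lay below the lowest parental library, but by little. DNMT3A, a de novo methyltransferase, stood at 33.9, 36.3 and 35.5 CPM in parental and 36, 35.9 and 36.9 CPM in trastuzumab libraries, with overlap. DNMT3B, the other de novo enzyme, stood at 19.2, 17.4 and 19.3 CPM in parental and 18.4, 14.6 and 16.1 CPM in trastuzumab libraries, with overlap. UHRF1 stood at 42.9, 41.4 and 45.1 CPM in parental and 44.8, 43.5 and 45.6 CPM in trastuzumab libraries, also with overlap. None passed edgeR's test (log2 fold change -0.12 ± 0.051, 0.042 ± 0.068, -0.19 ± 0.10 and 0.048 ± 0.065, adjusted p = 0.0751, 0.656, 0.133 and 0.584). An unadjusted p below 0.05 was reached by 1 of the 4, and DESeq2 and limma-voom called 0. DNMT1 passed without parental replicate 1 (-0.15, adjusted p = 0.0252) and with library totals as the scale (-0.17, adjusted p = 0.00774), and DNMT3B without trastuzumab replicate 1 (-0.28, adjusted p = 0.0413). With GC content and length taken out, DNMT1 (-0.17), DNMT3B (-0.42) and UHRF1 (-0.24) were called lower and DNMT3A was not (-0.0076), and the GC fit called all 4 lower. Limma on log2(FPKM + 1) called DNMT1 (-0.17, adjusted p = 0.012) and DNMT3B (-0.20, adjusted p = 0.0351) lower. Whether the DNA methylation writers count as lower thus turns on the scaling and on base composition, while TET2 and TET3 were called under every choice tried.

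On the length-scaled measure, the 3 TET genes summed to 7.65, 8.69 and 8.08 FPKM in parental and 5.54, 5.21 and 5.72 FPKM in trastuzumab libraries. The 3 DNMT genes summed to 20.3, 20.6 and 22.0 FPKM and then 18.8, 18.2 and 18.6 FPKM. The TET sum was 38.9 ± 2.83% of the DNMT sum in parental libraries (SD, n = 3; 36.8 to 42.1%) and 29.6 ± 1.10% in trastuzumab libraries (28.6 to 30.8%). These ranges did not overlap.

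**Figure D4:**
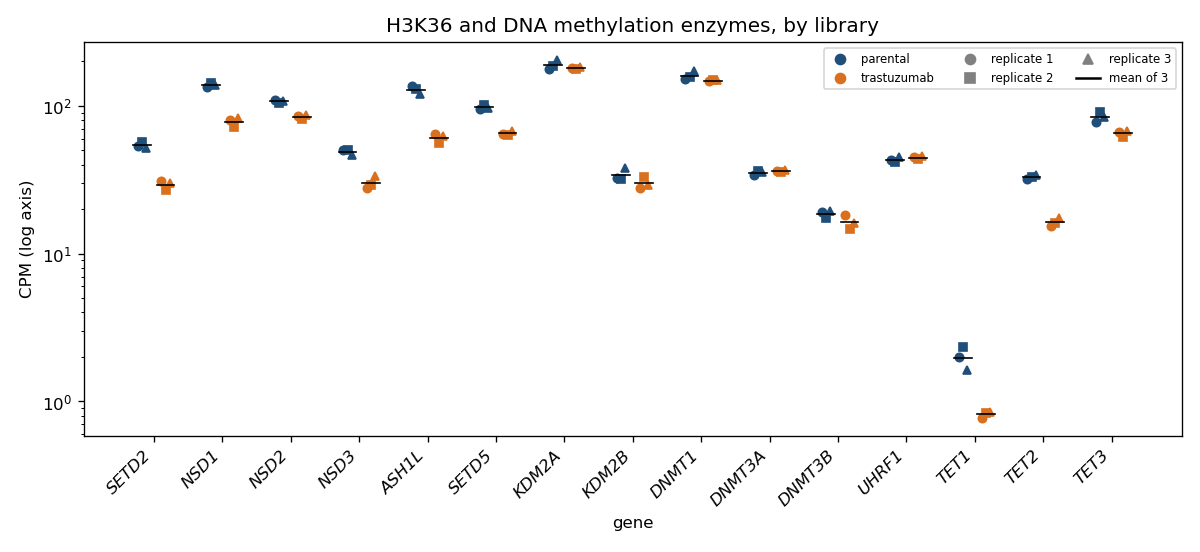
CPM on a log axis for the H3K36 enzymes (left 8 genes) and the DNA methylation enzymes (right 7), 1 point per library, parental in blue and trastuzumab in orange, with black lines at the mean of 3. The 6 H3K36 writers and the 3 TET genes have separate groups, whereas those of KDM2A, KDM2B, DNMT3A, DNMT3B and UHRF1 overlap.

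The 10 genes listed as H3K4 writers and subunits split, with 4 lower, 4 higher and 2 not past the test. The GC and length fit called 4 lower and 3 higher, and the GC fit 5 lower and 1 higher. The list includes the subunits WDR5, counted as higher, and ASH2L, without a call, and also KMT2E, counted as lower. KMT2C, a writer of monomethylated H3K4 at enhancers, showed 117, 121 and 112 CPM in parental replicates 1 to 3 and 58.7, 53.1 and 58.0 CPM in trastuzumab replicates 1 to 3, a 2.06-fold fall (-1.04 ± 0.055 SE, edgeR adjusted p = 4.19e-10). Its paralog KMT2D, which shares that role, stood at 199, 217 and 219.7 CPM in parental and 223, 212 and 230.3 CPM in trastuzumab libraries, with overlap and no call (0.066 ± 0.05, adjusted p = 0.311). KMT2A, the promoter-directed enzyme rearranged in leukaemia, showed 99.3, 109 and 103 CPM in parental and 67.1, 56.9 and 66.8 CPM in trastuzumab libraries (-0.71 ± 0.065, adjusted p = 1.81e-07), while its paralog KMT2B showed 78.3, 84.0 and 86.0 CPM in parental and 115, 121 and 114 CPM in trastuzumab libraries (0.50 ± 0.052, adjusted p = 7.4e-07). The 2 pairs of paralogs differ in composition in the same order as in fold change: KMT2C and KMT2A have 45.2% and 46.3% GC, KMT2D and KMT2B 58.8% and 61.4%. After removal of GC content and length, KMT2C (-0.58), KMT2A (-0.28) and KMT2B (0.33) kept their calls and KMT2D stayed at 0.0079. The GC fit put KMT2D at -0.25 (adjusted p = 0.000214).

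KMT2E, a KMT2-family protein that binds methylated H3K4 and is held to lack catalytic activity, showed 44.7, 42.5 and 41.2 CPM in parental replicates 1 to 3 and 21.5, 23.1 and 23.0 CPM in trastuzumab replicates 1 to 3 (-0.93 ± 0.072, edgeR adjusted p = 2.62e-08) and was lower in all 3 fits. SETD1A and SETD1B, the main writers of trimethylated H3K4, rose from 53.1 ± 4.45 to 70.6 ± 2.32 CPM and from 40.6 ± 1.87 to 52.4 ± 1.92 CPM (mean ± SD, n = 3). Their log2 fold changes were 0.41 ± 0.065 and 0.37 ± 0.065, then 0.15 and 0.15 in the GC and length fit and 0.054 and 0.0045 in the GC fit, which ended both calls (adjusted p = 0.435 and 0.96). SETD7, a monomethyltransferase with many non-histone substrates, fell from 190.2 ± 6.02 to 139 ± 3.94 CPM (-0.46 ± 0.046), a call lost in the GC and length fit (-0.057, adjusted p = 0.212). WDR5, a scaffold subunit of the KMT2A to KMT2D and SETD1 complexes, was called higher (0.18 ± 0.059, adjusted p = 0.0193). That call did not hold with parental replicate 2 (0.12, adjusted p = 0.128), trastuzumab replicate 2 (0.15, 0.0798) or trastuzumab replicate 3 (0.17, 0.0706) left out, and it turned in the GC and length fit (-0.18, 0.0106). ASH2L, another shared subunit, did not pass (-0.13 ± 0.08, adjusted p = 0.191).

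Parts of KMT2C have near-identical copies elsewhere in the genome, named KMT2CP1 to KMT2CP5 in the annotation, and how reads were divided among them is not stated. An unnamed gene annotated across KMT2A on the same strand (ENSG00000285827, noticed after its values were seen) went from a mean of 2.43 CPM to 0 in every trastuzumab library, and how reads of the 2 genes were divided is not stated. KMT2E overlaps SRPK2 on the other strand, itself lower (from 73.5 to 44.3 CPM), and KMT2B overlaps IGFLR1, itself higher (from 2.79 to 4.80 CPM).

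All 3 H3K4 demethylases were lower. KDM5B, a trimethyl-H3K4 demethylase highly expressed in luminal breast cancer, showed 80.8, 82.4 and 78.3 CPM in parental replicates 1 to 3 and 46.9, 46.1 and 47.8 CPM in trastuzumab replicates 1 to 3 (-0.78 ± 0.054 SE, edgeR adjusted p = 8.48e-09) and remained lower in both further fits (-0.30 and -0.54). KDM5A, its paralog, showed 51.1, 53.5 and 45.4 CPM in parental and 42.1, 36.2 and 39.8 CPM in trastuzumab libraries (-0.35 ± 0.077), which ended with correction (0.075 in the GC and length fit, adjusted p = 0.387). KDM1A, the flavin-dependent demethylase LSD1, showed a small fall, 116, 119 and 115 CPM in parental and 103, 105 and 104 CPM in trastuzumab libraries (-0.17 ± 0.046, adjusted p = 0.00662), which kept its call in both further fits and lost it with upper-quartile scaling (-0.11, adjusted p = 0.0536). Groups were apart in all 3 genes.

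Of the 4 genes of PRC2, the H3K27 methyltransferase complex, 2 were lower and 2 did not pass. EZH2, its main catalytic subunit in dividing cells, showed 58.0, 56.2 and 51.7 CPM in parental replicates 1 to 3 and 41.1, 35.4 and 38.4 CPM in trastuzumab replicates 1 to 3 (-0.53 ± 0.072 SE, edgeR adjusted p = 1.1e-05). SUZ12, a core scaffold subunit, showed 28.7, 27.8 and 28.7 CPM in parental and 16.7, 16.4 and 17.4 CPM in trastuzumab libraries (-0.75 ± 0.076, adjusted p = 4.62e-07). Both groups were apart and both calls held in the further fits (-0.32 and -0.20 in the GC and length fit). EED, the subunit that reads trimethylated H3K27, stood at 23.5, 20.7 and 24.2 CPM in parental and 27.7, 22.6 and 26.9 CPM in trastuzumab libraries, with overlap and no call (0.18 ± 0.092, adjusted p = 0.13). EED passed without trastuzumab replicate 2 (0.26, adjusted p = 0.031), and the further fits called it higher (0.73 and 0.69, adjusted p = 3.98e-06 and 7.9e-06). The transcript of EED has 38.5% GC, in the quintile in which 67.3% of all genes were called lower. EZH1, the alternative catalytic subunit, stood at 8.49, 9.93 and 7.98 CPM in parental and 7.95, 8.96 and 8.24 CPM in trastuzumab libraries, with overlap (-0.07 ± 0.13, adjusted p = 0.696). EZH1 made up 8.58 to 10.2% of the summed EZH1 and EZH2 FPKM in parental and 11.05 to 14.1% in trastuzumab libraries. SUZ12 has a transcribed copy, SUZ12P1, at 5.39 and 5.67 CPM, with which reads may be shared.

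The H3K27 demethylases moved in opposite directions. KDM6A, the X-linked enzyme UTX, fell from 37.3 ± 0.960 to 26.8 ± 0.929 CPM (-0.48 ± 0.07, edgeR adjusted p = 2.4e-05), and KDM6B, the inducible enzyme JMJD3, rose from 31.4 ± 2.04 to 38.0 ± 2.30 CPM (0.28 ± 0.076, adjusted p = 0.0062). KDM6A has 42.7% GC and KDM6B 62.5%, and both calls ended in the GC and length fit (-0.083 and 0.028, adjusted p = 0.361 and 0.781) and in the GC fit (adjusted p = 0.137 and 0.336).

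Of the 6 H3K9 methyltransferases, 1 was lower, 1 higher and 4 did not pass. SUV39H2, which trimethylates H3K9 in heterochromatin, showed 22.3, 18.5 and 19.7 CPM in parental replicates 1 to 3 and 11.8, 11.96 and 10.97 CPM in trastuzumab replicates 1 to 3 (-0.80 ± 0.10 SE, edgeR adjusted p = 3.64e-06), and was lower in all 3 fits. It overlaps DCLRE1C on the other strand, itself lower (from 11.8 to 8.50 CPM). Its paralog SUV39H1 stood at 30.0, 30.5 and 35.1 CPM in parental and 36.1, 35.0 and 35.0 CPM in trastuzumab libraries, with overlap (0.15 ± 0.076, adjusted p = 0.115). SUV39H1 passed as higher without parental replicate 3 (0.23, adjusted p = 0.0172) and as lower in the GC and length fit (-0.21, 0.021), so no direction is given for it. EHMT2, the dimethyltransferase G9a, was called higher (from 63.6 ± 5.51 to 77.1 ± 4.25 CPM, 0.28 ± 0.066, adjusted p = 0.00192), and stood at 0.054 and -0.045 in the further fits without a call. Its partner EHMT1 (-0.13 ± 0.057), SETDB1 (0.047 ± 0.065), which silences retroelements, and the scarce SETDB2 (-0.025 ± 0.22) did not pass, with adjusted p = 0.066, 0.595 and 0.941. EHMT1 passed as lower without parental replicate 1 (-0.16, adjusted p = 0.043) and in both further fits (-0.14 and -0.40).

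PHF8 showed the largest rise of the whole set. This X-linked demethylase of dimethylated H3K9 and monomethylated H4K20, which binds promoters through trimethylated H3K4, showed 64.1, 66.7 and 70.1 CPM in parental replicates 1 to 3 and 97.3, 96.0 and 104 CPM in trastuzumab replicates 1 to 3 (0.56 ± 0.054 SE, edgeR adjusted p = 2.65e-07). Every trastuzumab library lay well above every parental one. With correction the log2 fold change was 0.59 in the GC and length fit and 0.45 in the GC fit. PHF8 (ENSG00000172943, chromosome X, 53936676 to 54048958) has 51.9% GC, close to the middle of all genes. KDM3B, a demethylase of the lower H3K9 methyl states, also rose, 112, 114 and 122 CPM in parental and 139, 126 and 133 CPM in trastuzumab libraries (0.19 ± 0.053, adjusted p = 0.00537; 0.34 in the GC and length fit). On deposited FPKM, which are not scaled by TMM, the rise of KDM3B did not pass (0.12 on the log2(FPKM + 1) scale, adjusted p = 0.0702).

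Of the other 6 H3K9 demethylases, 4 were lower and 2 did not pass, and the GC and length fit ended the 4 calls. JMJD1C, a KDM3-related protein, showed 37.9, 29.4 and 29.3 CPM in parental and 20.5, 17.3 and 19.8 CPM in trastuzumab libraries (-0.75 ± 0.10, edgeR adjusted p = 2.13e-05). KDM7A (from 31.7 ± 3.71 to 22.3 ± 1.36 CPM, -0.51 ± 0.09), a PHF8 relative, KDM3A (from 22.0 ± 0.936 to 16.2 ± 1.58 CPM, -0.44 ± 0.091) and KDM4C (from 17.6 ± 1.73 to 13.6 ± 1.43 CPM, -0.37 ± 0.11) were lower as well. In the GC and length fit these 4 stood at -0.10, 0.12, 0.046 and -0.022 with no call, and in the GC fit JMJD1C alone kept one (-0.23, adjusted p = 0.0313). The call of KDM4C was also lost without trastuzumab replicate 3 (-0.29, adjusted p = 0.0573). KDM4A (-0.12 ± 0.055, adjusted p = 0.097) and KDM4B (0.17 ± 0.074, adjusted p = 0.0687), which act on H3K9 and H3K36, did not pass, though neither had overlapping groups. KDM4A passed as lower in the GC and length fit (-0.13, adjusted p = 0.0481; 0.0821 with the replicate block), with library totals as the scale (-0.17, 0.0154) and by limma on log2(FPKM + 1) (-0.17, 0.0112). KDM4B passed as higher by DESeq2 (0.19, adjusted p = 0.0494), with upper-quartile scaling (0.22, 0.0185), with a filter of at least 1 CPM in 3 libraries (0.18, 0.0497) and without trastuzumab replicate 2 (0.23, 0.0246). JMJD1C overlaps REEP3 on the other strand, itself lower (from 85.0 to 55.9 CPM).

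DOT1L, the sole H3K79 methyltransferase, stood at 58.8, 59.6 and 68.8 CPM in parental replicates 1 to 3 and 68.0, 67.8 and 70.3 CPM in trastuzumab replicates 1 to 3 and did not pass (0.14 ± 0.064, edgeR adjusted p = 0.086). It passed as higher without parental replicate 3 (0.21, adjusted p = 0.00463) and as lower in the GC fit (-0.22, 0.00354). For H4K20, KMT5A, which makes the monomethyl mark in dividing cells, showed 37.2, 36.1 and 35.6 CPM in parental and 29.7, 29.1 and 33.1 CPM in trastuzumab libraries (-0.25 ± 0.074, adjusted p = 0.0104) and was lower in the further fits too (-0.41 and -0.39). Its call was lost without trastuzumab replicate 2 (-0.21, adjusted p = 0.0549), and it has processed copies, of which KMT5AP2 stood at 2.44 and 2.33 CPM. KMT5B, which makes the di- and trimethyl marks, was called lower (-0.24 ± 0.082, adjusted p = 0.021) but turned to 0.21 (adjusted p = 0.0194) in the GC and length fit. It also did not hold with parental replicate 1 (-0.18, adjusted p = 0.116), parental replicate 2 (-0.22, 0.0768), trastuzumab replicate 2 (-0.22, 0.0808) or trastuzumab replicate 3 (-0.24, 0.0627) left out. KMT5C did not pass (-0.082 ± 0.092, adjusted p = 0.508) and was lower with correction (-0.43, 0.00114).

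Of the 3 arginine methyltransferases, 1 was higher and 2 did not pass. PRMT1, which makes most asymmetric dimethylarginine, rose from 189 ± 12.1 to 227 ± 12.9 CPM (0.27 ± 0.055, edgeR adjusted p = 0.000608), and stood at -0.035 in the GC and length fit (adjusted p = 0.608). PRMT5, the main symmetric dimethyltransferase, had 166, 161 and 184 CPM in parental and 171, 184 and 170.4 CPM in trastuzumab libraries, and CARM1, a coactivator of nuclear receptors, 40.9, 40.6 and 47.5 CPM in parental and 44.5, 42.7 and 43.0 CPM in trastuzumab libraries. Both had overlapping groups and no call (adjusted p = 0.604 and 0.895), and both were called lower in the GC and length fit (-0.13 and -0.34). The replicate block ended that call for PRMT5 (adjusted p = 0.0572).

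Per unit of length, PRMT5 and PRMT1 were the most abundant members, at 46.8 ± 2.88 and 45.8 ± 1.91 FPKM and 35.4 ± 2.06 and 40.7 ± 2.25 FPKM in parental and trastuzumab libraries. TET1 was the least abundant, at 0.187 and 0.073 FPKM, and SETDB2 came next (0.483 and 0.453 FPKM). The median over members was 4.89 FPKM in parental and 3.64 FPKM in trastuzumab libraries. Within marks, the subunit WDR5 led the H3K4 writers and subunits (17.1 FPKM in parental libraries) and KMT2A was the lowest (2.99). KDM1A led the H3K4 erasers (19.3, against 2.91 for KDM5B), SUV39H1 the H3K9 writers (8.87) and KDM3B the H3K9 erasers (13.3, against 1.49 for KDM3A). EZH2 led PRC2 (11.01, against 1.12 for EZH1) and, on deposited FPKM, KDM6B its erasers (3.90, against 1.40 for KDM6A). In parental CPM KDM6A was the higher of these erasers (37.3, against 31.4 for KDM6B). Their exonic lengths in GENCODE 29 are 7139 bases for KDM6A and 7258 for KDM6B. The FPKM order of this pair thus turns on the gene lengths behind the FPKM, which are not stated. KMT5A led the H4K20 writers (7.14, against 3.05 for KMT5C). Among the H3K36 writers ASH1L was highest in parental libraries (8.64 ± 0.643 and 3.91 ± 0.280 FPKM in the 2 groups), by less than its SD above NSD1 (8.03), and NSD3 the lowest (2.88 ± 0.162 and 1.69 ± 0.161 FPKM). In trastuzumab libraries SETD5 (4.51) and NSD1 (4.30) stood above ASH1L (3.91). DNMT1 was the highest DNA methyltransferase (14.7 ± 0.836 and 12.9 ± 0.0872 FPKM) and TET3 the highest TET gene (6.15 ± 0.478 and 4.57 ± 0.229 FPKM).

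**Figure D5:**
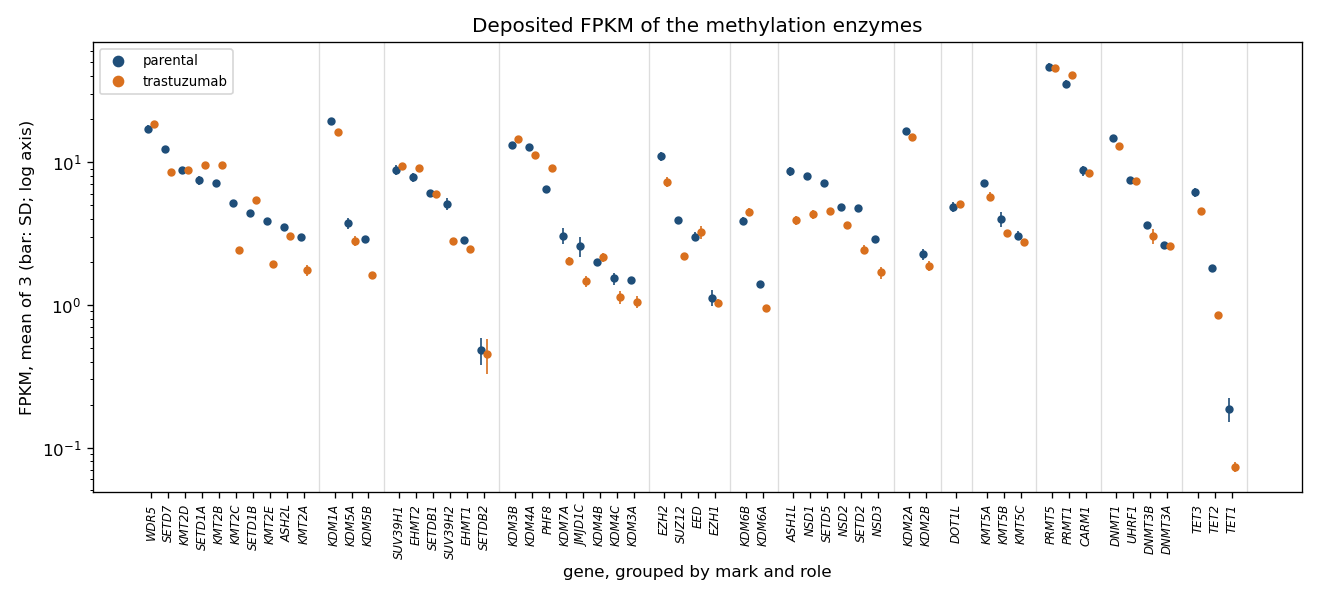
Deposited FPKM on a log axis, mean of 3 libraries with SD, parental in blue and trastuzumab in orange, for the 55 genes grouped by mark and role and ordered by parental level within a group. PRMT5 and PRMT1 are highest and TET1 and SETDB2 lowest. The 6 H3K36 writers all have the orange point below the blue.

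EZH2, SUV39H2, KMT5A, DNMT1 and UHRF1 are known to vary with the cell cycle, so proliferation genes were read beside them. Of 18 such genes, 9 were lower, 5 higher and 4 not past the test, against 25.4% lower and 23.9% higher over all tested genes. Their median was -0.17, and their summed level was 2914 to 3074 CPM in parental and 2540 to 2652 CPM in trastuzumab libraries. The proliferation genes MKI67 (from 225 ± 3.95 to 104 ± 5.68 CPM, -1.11 ± 0.049), BUB1 (-0.92 ± 0.072) and TOP2A (-0.91 ± 0.077) had the largest falls by edgeR. The largest rise on the list was 0.42. In the GC and length fit 9 were lower and 2 higher, with a median of -0.068. The GC fit called 7 lower and 2 higher, with a median of -0.025. The part of proliferation in the levels of the methylation enzymes was not tested.

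Among other subunits of the same complexes, changes went both ways. Of 8 tested accessory PRC2 genes, 1 was higher, 4 were lower and 3 did not pass. PHF19, a Polycomb-like protein that draws PRC2 to chromatin, showed 3.11, 2.32 and 2.82 CPM in parental and 9.04, 6.75 and 7.58 CPM in trastuzumab libraries (1.5 ± 0.17, edgeR adjusted p = 1.74e-06; 1.29 in the GC and length fit), whereas MTF2 (-0.55 ± 0.10), its paralog, and AEBP2 (-0.38 ± 0.10) were lower without correction and had no call with it (-0.089 and 0.13). Of 11 further subunits of the H3K4 methyltransferase complexes, 4 were higher, 5 lower and 2 not past the test. CXXC1, the CpG-binding subunit of the SETD1 complexes, rose from 23.7 ± 0.895 to 40.4 ± 2.76 CPM (0.77 ± 0.075), while HCFC2 (-0.99 ± 0.14) and the KMT2C/D-complex subunit NCOA6 (from 181 ± 7.61 to 132 ± 7.10 CPM, -0.46 ± 0.052) fell. All 3 calls held in the GC and length fit.

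Readers of H3K9 and DNA methylation were mostly lower, with 10 of 12 tested genes lower, 2 higher and 0 not past the test, and a median of -0.46. Over all tested genes 25.4% were lower and 23.9% higher. The median GC content of these readers was 43.6%, in a quintile in which 49.7% of protein-coding genes were called lower and 9.8% higher. With GC content and length taken out, 5 of the 12 readers were lower, 1 higher and 6 not past the test. CBX5, the heterochromatin protein HP1-alpha, which binds methylated H3K9, showed 96.5, 92.2 and 90.4 CPM in parental replicates 1 to 3 and 28.6, 25.2 and 26.4 CPM in trastuzumab replicates 1 to 3 (-1.80 ± 0.063 SE, edgeR adjusted p = 4.58e-12; -1.22 in the GC and length fit). UHRF2 (from 14.8 ± 0.971 to 8.58 ± 2.46 CPM, -0.79 ± 0.17), the UHRF1 paralog, and ZBTB33 (-0.66 ± 0.10), a methyl-CpG-binding repressor, lost their calls there (-0.25 and -0.20).

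Further histone methyltransferases and demethylases outside the set also moved both ways. Of 15 tested methyltransferases 3 were higher, 5 lower and 7 not past the test. MECOM, a SET-domain zinc finger protein, fell from 5.60 ± 0.499 to 2.08 ± 0.181 CPM (-1.42 ± 0.18), and the arginine methyltransferases PRMT2 (from 29.2 ± 0.627 to 43.6 ± 1.95 CPM, 0.58 ± 0.069) and PRMT7 (0.56 ± 0.082) rose, each by edgeR and in both further fits. Of 9 demethylase genes 2 were higher, 4 lower and 3 not past the test, with KDM4D (from 1.72 ± 0.161 to 0.885 ± 0.271 CPM, -0.96 ± 0.30), RIOX2 (-0.81 ± 0.086) and HR (-0.78 ± 0.18) the largest changes, all falls, which held in both further fits.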

How the data were processed

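RNA of SKBR3 cells was sequenced in 3 parental and 3 trastuzumab-treated libraries, and groups follow the treatment given in the sample labels. Per library, the authors deposited unnormalized counts of 60612 Ensembl genes, and FPKM (scaled to gene length and library size, to 2 decimals) of 33686. STAR 2.4.2a and hg38 are named in the submitters' processing notes, but what counted the reads, with which strand setting and annotation, is not given in the sources used here. Gene positions, GC content and exonic length come from GENCODE 29, and promoters from RefSeq.

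Counts were tested as deposited by the robust quasi-likelihood F test of edgeR 4.0.16 (R 4.3.3) after filterByExpr and TMM scaling, with Benjamini-Hochberg adjustment over 17854 genes and a threshold of 0.05. The further fits added, per library, spline trends with 5 degrees of freedom as offsets, over 17649 genes with a value. The procedure was checked on simulated data. Without a GC trend between the groups, the uncorrected fit called 0.0757% of unchanged genes. With such a trend the uncorrected fit called 37.5% of them, the GC fit 0.0233% and the GC and length fit 0.0175%. How far the trend in these data is of that kind was not tested. Depth was 71015138 to 82857810 counts, so that a count of 0 allows up to 3 counts, 0.0372 to 0.0428 CPM. That floor covers counting error only, whereas the printed SE and SD include the spread between libraries. Alternatives were other scalings, filters and thresholds, DESeq2 1.42.0, limma 3.58.1 on counts (voom) and on log2(FPKM + 1) or log2(FPKM + 0.1), a replicate block, and leaving out each library. The members and all gene lists were chosen with earlier results of these data known. Every member may be named, with full statistics for calls of at least 1.5-fold and calls that a composition fit ends or turns, and from each other list up to 3 called genes with at least 1 CPM and the largest change.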

Additional observations from a re-analysis of the deposited data

How the results depend on the processing

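Among the 55 genes, 15 were lower and 2 (KMT2B and PHF8) higher in each of 22 settings in which they were tested, and 21 and 4 in the 19 settings without a composition fit. Of 1151 values of members under alternatives, 976 kept their direction and side of the threshold, 46 lost a call, 52 gained one and 30 changed sign with a call before or after, all 30 in fits that take out base composition. A further 47 changed sign with no call on either side, 16 of them in those fits. The cause was not tested.

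Correction for GC content changed the sign, with a call before or after, of KMT2D (-0.25), WDR5 (-0.13), EHMT2 (-0.045), KDM7A (0.022), KDM6B (-0.084), DOT1L (-0.22), KMT5B (0.12), PRMT1 (-0.027), CARM1 (-0.32), DNMT3A (-0.20) and UHRF1 (-0.25). Correction for GC content and length did so for WDR5 (-0.18), KDM5A (0.075), SUV39H1 (-0.21), KDM3A (0.046), KDM7A (0.12), KMT5B (0.21), PRMT1 (-0.035), PRMT5 (-0.13), CARM1 (-0.34) and UHRF1 (-0.24). Without a call, the sign also turned for ASH2L (0.0065), SUV39H1 (-0.15), SETDB2 (0.47), KDM4B (-0.18) and PRMT5 (-0.072) with GC content, and for ASH2L (0.028), SETDB2 (0.49), EZH1 (0.050), DOT1L (-0.014) and DNMT3A (-0.0076) with GC content and length. With the replicate block added to the latter the called values that turned were -0.17 for WDR5, 0.076 for KDM5A, -0.21 for SUV39H1, 0.043 for KDM3A, 0.13 for KDM7A, 0.21 for KMT5B, -0.034 for PRMT1, -0.34 for CARM1 and -0.24 for UHRF1.

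Members called higher numbered 4 rather than 9 with the GC correction and with limma on unfiltered log2(FPKM + 1). Groups with more lower than higher calls numbered 6 of 13, and 10 with library totals, 11 with the GC correction and 10 with GC content and length. In the lists outside the set, 29 genes were higher and 53 lower, and 19 were higher with the GC correction, with GC content and length, and with the block added to the latter, while 35 were lower with the GC correction and with the block and both corrections. Of all genes 23.9% were higher and 25.4% lower, against 14.1% and 14.5% of the larger number tested without a filter and 8.5% and 12% of all genes with FPKM. Limma on filtered FPKM called 39% lower with a pseudocount of 1 and 38.9% with 0.1, on values that carry no TMM factor.

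Leaving out 1 library at a time gave 8 to 11 members higher and 24 to 27 lower, 6 to 8 groups with more lower calls, 25 to 30 and 50 to 53 genes of the other lists, 20.4 to 23.0% and 21.8 to 23.6% of all genes, and a correlation with GC content of 0.517 to 0.568. Deviations from the group means correlated at r = 0.24, -0.0167 and 0.0307 over 8945 genes for libraries with the same replicate number. Pairs with different numbers gave -0.248 to 0.231. These values depend on one another, since each deviation is taken from a group mean, and cannot settle whether the numbers pair libraries. The replicate block changed no member's call in the fit without correction. Added to the correction for GC content and length it ended the calls of TET1 (adjusted p = 0.0648), KDM2B (0.0537), KDM4A (0.0821) and PRMT5 (0.0572). With 3 libraries a group, 1 cell line and 1 treatment, the treatment and any other difference between the groups of libraries cannot be told apart. TET1, with 54 to 171 counts a library, is the member least precisely measured.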

Other observations

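Of 19 tested subunits of PRC1, the Polycomb complex that reads methylated H3K27 and ubiquitinates histone H2A, 8 were higher, 8 lower and 3 not past edgeR's test, with a median log2 fold change of 0.019. CBX7, a chromodomain reader, rose from 11.8 ± 1.14 to 22.7 ± 1.39 CPM (0.94 ± 0.10 SE), while PHC1 (from 47.2 ± 4.22 to 25.6 ± 1.02 CPM, -0.88 ± 0.078) and RYBP (from 57.0 ± 3.82 to 33.5 ± 1.81 CPM, -0.76 ± 0.071) fell (mean ± SD, n = 3). All 3 were called in the same direction in both further fits, in which 4 and 5 of the 19 were higher and 5 and 5 lower.

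Of 15 tested genes that supply S-adenosylmethionine or 2-oxoglutarate, 4 were higher, 8 lower and 3 not past the test. MAT1A, the S-adenosylmethionine synthetase typical of liver, had 10, 8 and 31 counts in parental and 142, 155 and 152 counts in trastuzumab libraries, which remain low levels (from 0.223 ± 0.176 to 1.95 ± 0.0698 CPM; 3.12 ± 0.45, edgeR adjusted p = 2.16e-05). AHCYL2, a relative of the enzyme that clears S-adenosylhomocysteine, fell from 16.9 ± 1.85 to 9.73 ± 0.559 CPM (-0.79 ± 0.11). Both calls held in the GC fit and in the GC and length fit. Over the 8 lists of genes outside the set, 29 of 107 tested genes were higher and 53 lower.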
